A study of Homo sapiens with 17 samples.

Results

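The 10 genes described here encode proteins that detect, edit or destroy foreign and misplaced nucleic acid, or that pass on the alarm. They are IFIH1, DHX58, MAVS, EIF2AK2, ADAR, ZBP1, TRIM25, IFI16, AIM2 and TREX1, chosen by name with earlier results of these data known. They were matched to 10 of the 58278 gene identifiers that each of 17 deposited count files holds. Every library was made from MOLM13, an established human acute myeloid leukaemia cell line with an MLL-AF9 fusion, which all groups therefore share. One experiment held CRISPR knockouts of HOXA9 (HOXA9_KO, 3 libraries) and of SAFB (SAFB_KO, 3 libraries) beside non-targeting cells (NT, 3 libraries). The other held a CRISPR knockout of MEIS1 (MEIS1_KO, 4 libraries) beside its own non-targeting cells (NT_MEIS1ex, 4 libraries). HOXA9 and MEIS1 encode homeobox transcription factors that sustain such leukaemias, and SAFB encodes a DNA- and RNA-binding protein of the nuclear matrix that the study places with HOXA9 in a repressive complex. The labels give no guide sequence or time point, and do not say whether a library came from a pool, a clone or a separate culture, so p-values measure only the spread between libraries.

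Cells read double-stranded RNA and cytosolic DNA as signs of infection. IFIH1 (also called MDA5) binds long double-stranded RNA and signals through MAVS, an adaptor on the mitochondrial surface, to switch on type I interferon genes. DHX58 (LGP2) is a relative that lacks the signalling domains and modulates IFIH1, and TRIM25 is a ubiquitin ligase of the neighbouring RIG-I branch. EIF2AK2 (PKR) halts translation when it meets double-stranded RNA, ADAR edits adenosine to inosine in such RNA, and ZBP1 binds Z-form nucleic acid and can trigger necroptosis. IFI16 and AIM2 are DNA-binding proteins of 1 family, AIM2 being the one that builds an inflammasome, and TREX1 is an exonuclease that clears DNA from the cytosol. Many of these genes are themselves raised by interferon, so their RNA is often read together with that of classical interferon-induced genes.

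Libraries held 23264176 to 67842104 counts in genes, the highest total in NT replicate 1. The targeted genes were lower in each knockout: HOXA9 lay at 22.9 to 23.8 CPM (counts relative to the library total after TMM scaling over the 17 libraries) in HOXA9_KO against 42.7 to 44.6 CPM in NT, SAFB at 20.6 to 23.6 CPM in SAFB_KO against 35.7 to 43.5 CPM in NT, and MEIS1 at 9.52 to 11.7 CPM in MEIS1_KO against 29.3 to 31.3 CPM in NT_MEIS1ex. MEIS1 was also lower in HOXA9_KO, at 17.5 to 19.2 CPM, and in SAFB_KO, at 40.0 to 43.3 CPM, against 51.7 to 53.6 CPM in NT. SAFB differed between the control sets, at 35.7 to 43.5 CPM in NT and 90.2 to 125 CPM in NT_MEIS1ex. All 12 markers of myeloid blasts had counts in every library, among them CD33 at 58.8 to 121 CPM. Of the 10 erythroid and megakaryocyte markers, HBA2, PF4 and PPBP were at 0 in all libraries, while EPOR had 8.13 to 18.4 CPM, GP9 up to 3.05 CPM and ITGA2B up to 0.716 CPM. That list summed to 8.70 to 9.17 CPM in HOXA9_KO and 10.1 to 10.2 CPM in SAFB_KO against 11.2 to 11.8 CPM in NT, and to 16.1 to 19.0 CPM in MEIS1_KO against 18.6 to 21.6 CPM in NT_MEIS1ex. The myeloid markers summed to 32767 to 35865 CPM in HOXA9_KO and 15134 to 16931 CPM in SAFB_KO against 6728 to 6822 CPM in NT, and to 7787 to 8176 CPM in MEIS1_KO against 4605 to 6023 CPM in NT_MEIS1ex. LYZ alone ranged from 2786 to 33605 CPM over the libraries, the next highest of these markers reaching 729 CPM. Of the 12, 8 rose and 3 fell in HOXA9_KO against NT (median of the list 0.87 on the log2 scale). In SAFB_KO 7 rose and 3 fell (0.33). Of all tested genes, 27.6% rose and 29.9% fell in HOXA9_KO, and 20.2% rose and 15.3% fell in SAFB_KO. The lymphoid markers summed to 124 to 132 CPM in HOXA9_KO and 110.2 to 116 CPM in SAFB_KO against 118 to 121 CPM in NT, most of it from NCAM1. The markers of adherent cells summed to 531 to 559 CPM in HOXA9_KO and 331 to 354 CPM in SAFB_KO against 180 to 186 CPM in NT, nearly all from PECAM1, which myeloid cells express, while KRT8 had 2.41 to 5.23 CPM and KRT18 6.80 to 11.7 CPM over the libraries and KRT5 was at 0 in all 17. The experiments differed in make-up: mitochondrial ribosomal RNA took 31.9 to 35.5% of gene counts in HOXA9_KO and 24.9 to 27.0% in SAFB_KO against 22.5 to 28.4% in NT, but at most 0.00941% in the MEIS1 experiment. Outside annotated genes lay 8.65 to 9.27% in HOXA9_KO and 10.6 to 12.7% in SAFB_KO against 16.4 to 18.1% of reads in NT, and 7.58 to 9.15% in MEIS1_KO against 6.07 to 8.47% in NT_MEIS1ex. These are bulk libraries, in which fewer cells of a kind and less RNA per cell cannot be told apart, and the part of these technical differences in the results was not tested.

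Of the 10 genes, 8 have promoter windows in RefSeq (GRCh38.p14), each covering 250 bases before and 50 bases after an annotated start; 11 windows were read, since ADAR has 3 and IFI16 has 2. They were searched on both strands for a pair of GAAA cores with any 2 bases or any 1 base between them, a core that interferon regulatory factors recognise. The 2-base spacing occurred in the windows of IFIH1, EIF2AK2 and AIM2 and in 3.57% of all 35116 windows, and the 1-base spacing in those of TRIM25 and IFI16 and in 3.12% of all. Either pair was in 6.40% of all windows. Another motif searched in the same windows, TTCNNNGAA (N being any base), occurred in 7.66% of all windows and in 0 of the members. No match was found in the windows of MAVS, ADAR and TREX1, which says only that these spaced pairs are absent from these windows; DHX58 and ZBP1 were not searched. The stretches with a match are printed as read on the strand of the gene, with the matches in capitals. TTTC pairs are the same motif on the other strand. A match is a description of the letters and not evidence of binding.
IFIH1, chr2:162318685-162318853, minus strand: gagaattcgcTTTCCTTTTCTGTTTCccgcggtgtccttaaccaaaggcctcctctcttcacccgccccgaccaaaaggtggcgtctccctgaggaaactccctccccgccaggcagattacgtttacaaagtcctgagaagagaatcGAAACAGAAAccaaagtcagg
EIF2AK2, chr2:37156967-37156996, minus strand: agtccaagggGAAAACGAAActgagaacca
TRIM25, chr17:56914033-56914062, minus strand: tcgagctaggTTTCGTTTCctcggcggcct
IFI16, chr1:159009843-159009906, plus strand: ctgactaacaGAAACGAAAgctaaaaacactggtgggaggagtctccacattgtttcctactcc
AIM2, chr1:159076767-159076966, minus strand: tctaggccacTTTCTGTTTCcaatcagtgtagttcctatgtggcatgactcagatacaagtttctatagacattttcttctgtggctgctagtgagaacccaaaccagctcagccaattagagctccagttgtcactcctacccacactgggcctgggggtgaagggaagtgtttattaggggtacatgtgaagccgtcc
IFIH1 held 3 matches, of which the upstream pair overlap each other and the last lies at -21 to -12 from the start. In EIF2AK2 and TRIM25 the match spans the start itself, in IFI16 it lies at -54 to -46 from the second of its RefSeq starts, and in AIM2 it lies at -190 to -181.

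The NT libraries stood apart from all other groups in genes of this kind, and each result against them carries that. The mean log2(CPM + 1) of 20 interferon-induced effector genes outside the 10 described here was 3.99 ± 0.0220 in HOXA9_KO and 4.43 ± 0.0797 in SAFB_KO against 6.21 ± 0.208 in NT (SD, n = 3), and 5.10 ± 0.207 in MEIS1_KO against 4.80 ± 0.164 in NT_MEIS1ex (SD, n = 4). NT was thus the highest group, above non-targeting libraries of the same line in the other experiment. Within NT, replicate 3 was the lowest of the 3 for each of the 8 genes that fell in the knockouts. In HOXA9_KO and SAFB_KO the members are therefore set against NT and, further on, against NT_MEIS1ex as well. The related lists were compared in each knockout only with the controls of its own experiment.

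Relative to NT, 8 of the 9 sensors and effectors that could be tested fell in HOXA9_KO and MAVS rose. Among the 8, ZBP1 passed the filter on low counts only through NT, here and in the fit of all 17 libraries. In edgeR's quasi-likelihood test with Benjamini-Hochberg adjustment, 29.9% of all 18876 tested genes fell and 27.6% rose in that comparison. The median change of the 9 was −1.38 on the log2 scale, against −0.07 over all tested genes. Libraries scaled to nuclear protein-coding counts moved the higher share of all calls in HOXA9_KO to 23.6%, against 48.0%, with the median of all genes shifted by −0.25; the 8 falls kept their direction and their call. SAFB_KO gave the same split, 8 lower and MAVS higher, where 15.3% of tested genes fell and 20.2% rose, with a median of −1.36 against −0.02 over all, and the same scaling moved the higher share of all calls to 23.7%, against 56.9%, with the median shifted by −0.14. The same NT libraries served both comparisons, so the 2 sets of changes are not independent of each other. In both knockouts every library of the 8 lay below every NT library, which held for 31.7% of tested genes in HOXA9_KO and 22.8% in SAFB_KO; MAVS lay wholly above NT in HOXA9_KO, as 30.8% of tested genes did.

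**Figure D1:**
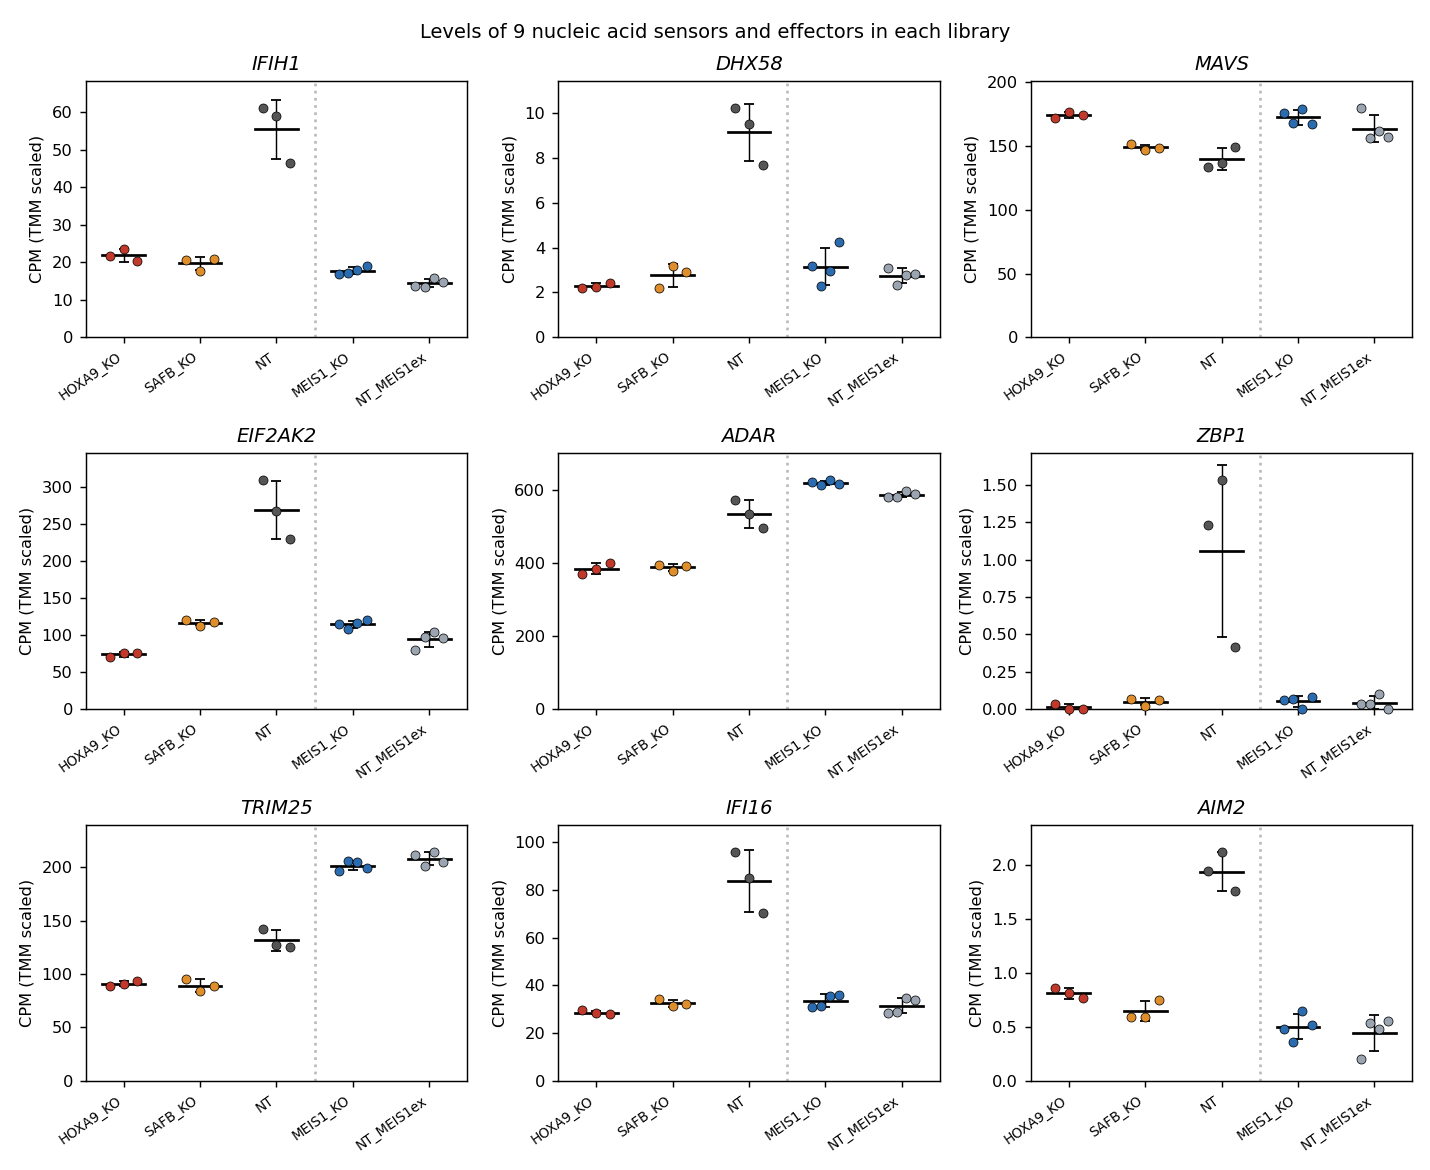
CPM after TMM scaling of 9 genes in each of the 17 libraries, by group; each point is a library, the bar is the mean and the whisker the SD, and the dotted line separates the experiments. NT is the highest group for IFIH1 (46.3 to 61.0 CPM), DHX58, EIF2AK2, ZBP1, IFI16 and AIM2, while ADAR and TRIM25 are highest in the MEIS1 experiment and MAVS spans a narrow range.

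Among the sensors of cytosolic RNA, IFIH1 (ENSG00000115267.5, GRCh38 chr2:162267079-162318703 on the minus strand) had 21.7, 23.5 and 20.2 CPM in HOXA9_KO and 20.5, 17.8 and 21.0 CPM in SAFB_KO, against 61.0, 58.9 and 46.3 CPM in NT. The knockout libraries overlapped each other and lay well below the lowest NT library. IFIH1 fell by 1.38 ± 0.11 (SE) on the log2 scale in HOXA9_KO (adjusted p 1.2e-06) and by 1.49 ± 0.11 in SAFB_KO (adjusted p 1.5e-06). DHX58 (ENSG00000108771.12, chr17:42101404-42112733 on the minus strand) had low counts, at 2.19, 2.26 and 2.41 CPM in HOXA9_KO and 2.18, 3.17 and 2.91 CPM in SAFB_KO, against 10.2, 9.49 and 7.70 CPM in NT. Again no knockout library reached the NT range. DHX58 fell by 2.02 ± 0.14 in HOXA9_KO (adjusted p 1.1e-17) and by 1.71 ± 0.13 in SAFB_KO (adjusted p 2.7e-15).

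The adaptor and the ligase of this arm moved less. MAVS (ENSG00000088888.17, chr20:3846799-3876123 on the plus strand), through which IFIH1 signals, lay at 172, 177 and 174 CPM in HOXA9_KO and 151, 147 and 148 CPM in SAFB_KO, against 133, 137 and 149 CPM in NT. HOXA9_KO lay above both other groups, whereas SAFB_KO overlapped NT. MAVS rose by 0.29 ± 0.04 in HOXA9_KO (adjusted p 1.7e-09), the only member of the 9 to rise, but with libraries scaled to nuclear protein-coding counts the change was 0.04 (adjusted p 0.316). Relative to the median of all genes MAVS stood at 0.36 under either scaling. Its rise in SAFB_KO, 0.10 ± 0.04 (adjusted p 0.0287), was not called without NT replicate 1 (0.06, adjusted p 0.201) or 2 (0.09, 0.114), without SAFB_KO replicate 1 (0.09, 0.0856) or 3 (0.10, 0.0609), nor under 4 other alternatives. TRIM25 (ENSG00000121060.16, chr17:56836387-56914080 on the minus strand) lay at 88.7, 91.1 and 93.1 CPM in HOXA9_KO and 95.3, 84.0 and 88.5 CPM in SAFB_KO, against 142, 127 and 125 CPM in NT. The 2 knockouts overlapped and both lay below NT. TRIM25 fell by 0.56 ± 0.04 in HOXA9_KO (adjusted p 3.1e-14) and by 0.55 ± 0.04 in SAFB_KO (adjusted p 1.4e-13); 2.29% of its exon sequence also belongs to other genes of its strand and 6.50% to genes of the opposite strand.

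Among the effectors that act on double-stranded RNA, EIF2AK2 (ENSG00000055332.16, chr2:37099210-37157065 on the minus strand), the kinase that shuts down translation, lay at 69.9, 75.8 and 75.8 CPM in HOXA9_KO and 119.7, 113 and 117 CPM in SAFB_KO, against 309, 268 and 230.2 CPM in NT. The 3 groups did not overlap, HOXA9_KO being the lowest. EIF2AK2 fell by 1.89 ± 0.11 in HOXA9_KO (adjusted p 5.3e-06) and by 1.20 ± 0.10 in SAFB_KO (adjusted p 1.3e-04); 4.05% of its exon sequence overlaps genes of the opposite strand. ADAR (ENSG00000160710.15, chr1:154582057-154628013 on the minus strand), the RNA-editing deaminase, lay at 371, 384 and 401 CPM in HOXA9_KO and 397, 379 and 391 CPM in SAFB_KO, against 574, 535 and 498 CPM in NT. ADAR fell by 0.50 ± 0.04 in HOXA9_KO (adjusted p 8.1e-14) and by 0.45 ± 0.04 in SAFB_KO (adjusted p 4.1e-12), a shift that was small beside that of EIF2AK2 but larger than the spread of the libraries. A gene count does not separate the interferon-driven long isoform of ADAR from the constitutive short one.

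ZBP1 (ENSG00000124256.14, chr20:57603846-57620576 on the minus strand), the Z-nucleic acid receptor, was close to the limit of detection outside NT. It had 1, 0 and 0 counts in HOXA9_KO and 2, 1 and 2 counts in SAFB_KO, against 85, 73 and 18 counts in NT. NT replicate 3 thus held 0.416 CPM, against 1.23 and 1.53 CPM in the other NT libraries. Over all libraries of the group, HOXA9_KO had 0.00994 times the CPM of NT (exact 95% interval of the counts 0.00025 to 0.0561) and SAFB_KO 0.0422 times (0.0135 to 0.100), intervals that cover counting error only. The fall passed the test in both comparisons (adjusted p 1.3e-09 in HOXA9_KO and 3.1e-08 in SAFB_KO), and in each with any 1 library left out. However, ZBP1 passed the filter on low counts only through NT, the group where it was high. The test therefore adds no separate support to the counts. The fitted log2 change was −6.27 in HOXA9_KO, ranging from −5.73 to −8.47 with a library left out, the far end being without HOXA9_KO replicate 1, which holds the only count of its group. It was −4.42 in SAFB_KO, ranging from −4.01 to −4.78. In the MEIS1 experiment the gene had 6 counts over 4 MEIS1_KO libraries and 5 over 4 NT_MEIS1ex libraries.

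The DNA sensors fell as well. IFI16 (ENSG00000163565.18, chr1:158999968-159055155 on the plus strand) lay at 29.5, 28.3 and 28.1 CPM in HOXA9_KO and 34.2, 31.3 and 32.1 CPM in SAFB_KO, against 95.9, 85.0 and 70.2 CPM in NT. Both knockouts were tight and far below NT, whose own libraries spread most. IFI16 fell by 1.58 ± 0.11 in HOXA9_KO (adjusted p 1.8e-06) and by 1.36 ± 0.10 in SAFB_KO (adjusted p 1.1e-05). AIM2 (ENSG00000163568.14, chr1:159062484-159147096 on the minus strand), its neighbour on the chromosome, had few counts, with 24, 24 and 26 counts in HOXA9_KO and 18, 26 and 25 counts in SAFB_KO, against 134, 101 and 76 counts in NT. In CPM this was 0.863, 0.811 and 0.764 in HOXA9_KO and 0.595, 0.590 and 0.751 in SAFB_KO, against 1.94, 2.12 and 1.76 in NT. AIM2 fell by 1.28 ± 0.25 in HOXA9_KO (adjusted p 1.5e-05) and by 1.58 ± 0.25 in SAFB_KO (adjusted p 9.9e-07).

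TREX1 (ENSG00000213689.11, chr3:48465811-48467645 on the plus strand) had 0 counts in all 17 libraries. A count of 0 allows up to 0.0435 to 0.119 CPM per library (3 counts, for counting error only). In GENCODE 29, 100% of its exon sequence also belongs to ATRIP on the same strand, and the files keep reads that lie in more than 1 gene, 6.09 to 12.2% of reads, on a line outside the genes. ATRIP itself had 0.912 to 1.04 CPM in HOXA9_KO, 0.862 to 1.02 CPM in SAFB_KO and 0.508 to 0.914 CPM in NT, and 0.332 to 0.926 CPM in MEIS1_KO and 0.413 to 1.45 CPM in NT_MEIS1ex. No level or fold of TREX1 can be read from these counts.

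**Figure D2:**
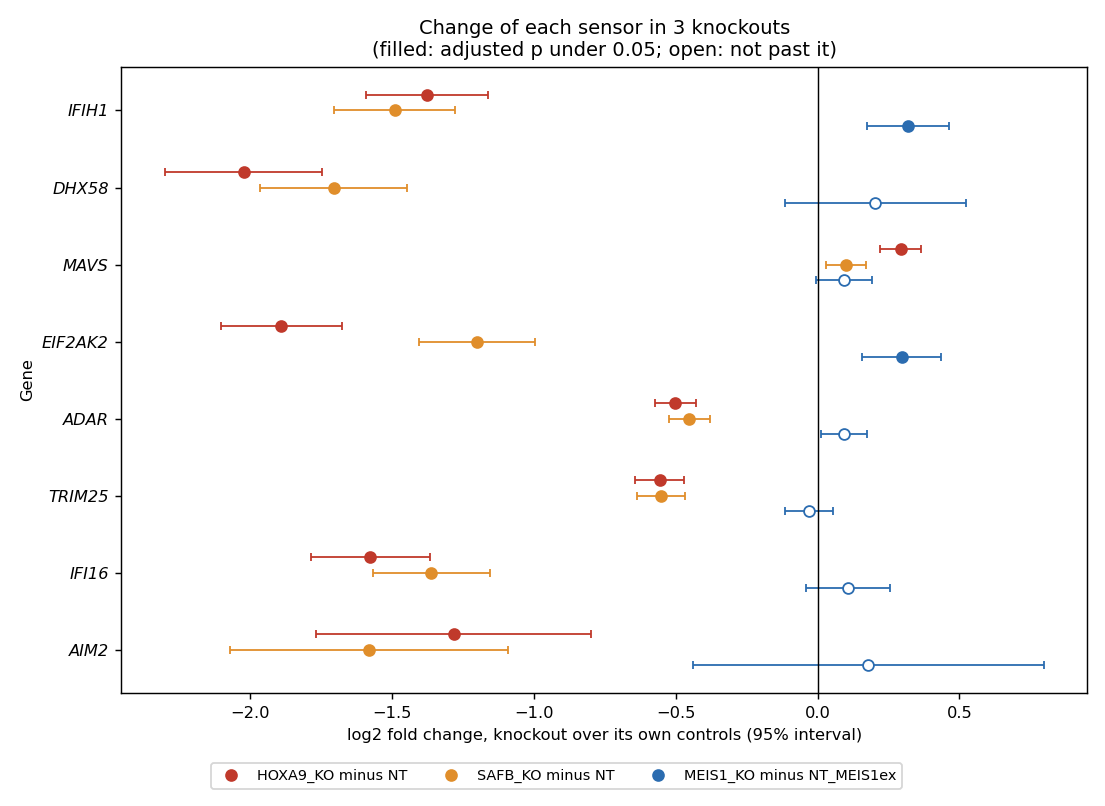
Log2 fold change with its 95% interval for 8 genes in each knockout over the controls of its own experiment; filled points passed an adjusted p under 0.05. ZBP1 is left out for its counts near 0 and TREX1 for its counts of 0. HOXA9_KO and SAFB_KO share the NT libraries and lie left of 0 for every gene but MAVS, while MEIS1_KO lies between −0.03 for TRIM25 and 0.32 for IFIH1.

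Set directly against each other, a comparison that needs no NT library, HOXA9_KO and SAFB_KO differed past the threshold in 2 of the 9 genes. EIF2AK2 was lower in HOXA9_KO, at −0.69 ± 0.11 on the log2 scale (adjusted p 0.00238), as were 20.5% of all tested genes. MAVS was higher in HOXA9_KO by 0.19 ± 0.04 (adjusted p 2.6e-05), as were 20.1%, and was not called under the scaling to nuclear protein-coding counts (0.08, adjusted p 0.0714). The other 7 did not pass: the 95% interval of the difference was −0.12 to 0.35 for IFIH1, −0.64 to 0.01 for DHX58, −0.12 to 0.03 for ADAR, −0.09 to 0.08 for TRIM25, −0.44 to 0.01 for IFI16 and −0.27 to 0.87 for AIM2. For ZBP1, with 1 and 5 counts in all, the counts allow no statement. The libraries of IFI16 did not overlap between the knockouts, being lower in HOXA9_KO as for 21.6% of tested genes, and those of AIM2 were all higher in HOXA9_KO, as for 26.5%. For IFI16 the difference of −0.22 (adjusted p 0.181) became a call without NT replicate 1 (adjusted p 0.00191) or 3 (0.00115). Those libraries enter this comparison only through the filter, the TMM factors, the adjustment over tested genes and the shared estimate of spread. DHX58 was likewise called without SAFB_KO replicate 1 (−0.45, adjusted p 0.0378).

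In MEIS1_KO no member fell past the threshold. Of the 8 that could be tested, IFIH1 and EIF2AK2 rose, where 4.97% of all 15744 tested genes rose, and 0 fell in edgeR, DESeq2 or limma-voom, where 3.84% of tested genes did in edgeR. At an unadjusted p under 0.05 ADAR was also higher (0.09 ± 0.04, adjusted p 0.179) and 0 were lower. The same scaling moved the higher share of all calls to 68.5%, against 56.5%, and the median by 0.03. IFIH1 lay at 17, 17.1, 18.0 and 19.0 CPM in MEIS1_KO, against 13.6, 13.5, 15.7 and 14.8 CPM in NT_MEIS1ex. The groups did not overlap, as for EIF2AK2 and ADAR and for 7.25% of tested genes, and IFIH1 rose by 0.32 ± 0.07 (adjusted p 0.00999). EIF2AK2 had 115, 108, 116 and 119.6 CPM in MEIS1_KO, against 79.6, 97.9, 103 and 96.4 CPM in NT_MEIS1ex. It rose by 0.30 ± 0.07 (adjusted p 0.0161), a call that was lost without MEIS1_KO replicate 3 (0.29, adjusted p 0.0572) or NT_MEIS1ex replicate 4 (0.30, 0.0522).

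The other genes of the MEIS1 experiment lay close to their controls. MAVS lay at 176, 168, 179 and 167 CPM in MEIS1_KO, against 179, 157, 162 and 157 CPM in NT_MEIS1ex, and its difference of 0.09 ± 0.05 (adjusted p 0.276) became a call without NT_MEIS1ex replicate 1 (0.13, adjusted p 0.0499). TRIM25 differed by −0.03 ± 0.04 at 196 to 205 CPM in MEIS1_KO against 201 to 214 CPM in NT_MEIS1ex. IFI16 differed by 0.11 ± 0.08 at 31.1 to 36.0 CPM against 28.6 to 34.7 CPM in NT_MEIS1ex. DHX58 (0.20 ± 0.16) and AIM2 (0.18 ± 0.32) overlapped between the groups. The difference for AIM2 was −0.06 without NT_MEIS1ex replicate 1, which held 6 counts against 14 to 19 in the other NT_MEIS1ex libraries. The median change of the 8 was 0.14, against 0.00 over all tested genes.

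The 2 sets of non-targeting libraries differed from each other in all 9 genes that could be tested. In the fit of all 17 libraries, 6 of the 9 genes were higher in NT than in NT_MEIS1ex and 3 were lower, where 38.4% of all 18836 tested genes were higher and 37.9% lower. ZBP1, among the 6, passed the filter on low counts only through NT, so its call adds no support beyond its counts. Every NT library lay above every NT_MEIS1ex library for those 6, as for 36.8% of tested genes, and below for the other 3, as for 36.7%. AIM2 was higher by 2.11 ± 0.24 on the log2 scale, IFIH1 by 1.95 ± 0.08, DHX58 by 1.73 ± 0.14, EIF2AK2 by 1.51 ± 0.09 and IFI16 by 1.41 ± 0.09. For ZBP1, NT had 27.0 times the CPM of NT_MEIS1ex (exact 95% interval of the counts 11.4 to 84.3), and the fitted log2 difference of 4.60 ranged from 4.16 to 5.43 with a library left out, the highest being without NT_MEIS1ex replicate 3. TRIM25 was lower in NT at −0.66 ± 0.05, MAVS at −0.23 ± 0.05 and ADAR at −0.14 ± 0.04, although the scaling to nuclear protein-coding counts, which moved the median of all genes by 0.44 and the higher share of all calls to 71.5%, against 50.4%, placed MAVS (0.19) and ADAR (0.28) higher in NT. Without NT replicate 3 the difference of ADAR was −0.09 (adjusted p 0.0868). Control set and experiment cannot be told apart here.

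Against NT_MEIS1ex in place of NT, an alternative chosen after seeing the data, 33.9% of the 18836 tested genes were higher and 37% lower in HOXA9_KO, and 34% higher and 36.9% lower in SAFB_KO, and the members called, 2 higher and 3 lower of 9 in each, are below these shares. In HOXA9_KO, 2 genes were then higher, IFIH1 by 0.60 (adjusted p 3.0e-07) and AIM2 by 0.85 (adjusted p 0.00908), and 3 were lower, EIF2AK2 by −0.35, ADAR by −0.61 and TRIM25 by −1.19; DHX58 (−0.26, adjusted p 0.183) and IFI16 (−0.14, adjusted p 0.189) did not pass. In SAFB_KO, IFIH1 was higher by 0.45 (adjusted p 2.9e-05) and EIF2AK2 by 0.30 (adjusted p 0.00543), while DHX58 (0.02, adjusted p 0.929) and IFI16 (0.04, adjusted p 0.683) did not pass, and MAVS (−0.14), ADAR (−0.60) and TRIM25 (−1.22) were lower. TRIM25 and ADAR were lower in both knockouts against either control set. MEIS1_KO set against NT had 6 genes lower and 3 higher, where 36.5% of tested genes were lower and 37.1% higher.

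**Figure D3:**
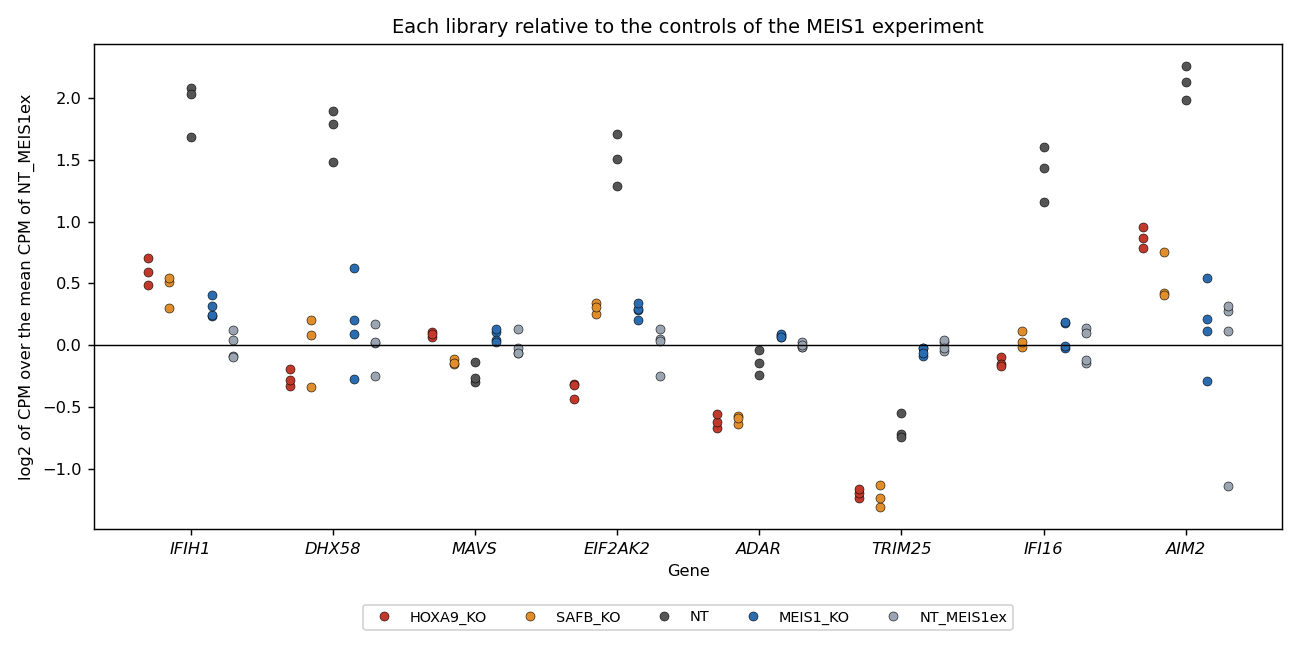
Log2 of the CPM of 8 genes in each library over the mean CPM of NT_MEIS1ex, by gene and group. For IFIH1 the NT libraries lie at 1.68 to 2.08, and likewise above all other groups for DHX58, EIF2AK2, IFI16 and AIM2; for TRIM25 the HOXA9_KO and SAFB_KO libraries lie at −1.31 to −1.13, below the NT libraries at −0.74 to −0.55.

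Levels of different genes can be set roughly beside each other once divided by exon length. The length used merges the exons of all annotated isoforms, including bases shared with other genes. The order between genes therefore depends on the annotation and not only on the transcripts present. ADAR was the first and ZBP1 the last of the 9 in every group. In HOXA9_KO the order after ADAR (39.8 ± 1.56 CPM per kb of exon, SD, n = 3) was MAVS (14.8 ± 0.220), TRIM25 (9.57 ± 0.230), EIF2AK2 (6.87 ± 0.316), IFI16 (5.41 ± 0.142) and IFIH1 (4.27 ± 0.317). In SAFB_KO, with ADAR at 40.1 ± 0.944, EIF2AK2 (10.8 ± 0.337) stood between MAVS (12.7 ± 0.183) and TRIM25 (9.39 ± 0.596), followed by IFI16 (6.14 ± 0.285) and IFIH1 (3.86 ± 0.339). In NT, with ADAR at 55.2 ± 3.93, EIF2AK2 (25.0 ± 3.66) and IFI16 (15.8 ± 2.44) stood ahead of TRIM25 (13.8 ± 1.0), MAVS (11.9 ± 0.714) and IFIH1 (10.8 ± 1.55), IFI16 overlapping with TRIM25 and MAVS with IFIH1 within 1 SD. In MEIS1_KO the order was ADAR (64.1 ± 0.568, n = 4), TRIM25 (21.2 ± 0.471), MAVS (14.7 ± 0.494), EIF2AK2 (10.7 ± 0.428), IFI16 (6.34 ± 0.506) and IFIH1 (3.48 ± 0.187). NT_MEIS1ex had the same order, with ADAR at 60.7 ± 0.781, TRIM25 at 21.9 ± 0.606, MAVS at 13.9 ± 0.913, EIF2AK2 at 8.77 ± 0.956, IFI16 at 5.95 ± 0.597 and IFIH1 at 2.82 ± 0.205 (n = 4). DHX58 and AIM2 came next after these in all groups, DHX58 between 0.596 in HOXA9_KO and 2.37 in NT and AIM2 between 0.221 in NT_MEIS1ex and 0.966 in NT.

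The knockout effects were then compared across the experiments, each against its own controls, in the fit of all 17 libraries. All 9 genes differed between the HOXA9 and the MEIS1 effect, 8 with a lower and MAVS with a higher effect in HOXA9_KO, where 19.7% and 24.5% of tested genes did so. ZBP1 is counted here, and for SAFB, although it passed the filter on low counts only through NT. The difference of MAVS, 0.24, was 0.14 (adjusted p 0.074) with a mean of at least 2 CPM required and −0.08 (adjusted p 0.339) under the scaling to nuclear protein-coding counts, so that it was called in neither. Between the SAFB and the MEIS1 effect 8 differed, all lower in SAFB_KO, as 8.49% of tested genes were, and 0 were higher in edgeR, DESeq2 or limma-voom, as 12.4% were in edgeR. MAVS differed by 0.02 ± 0.07 (unadjusted p 0.83, adjusted p 0.908, 95% interval −0.12 to 0.15). The difference was −2.15 ± 0.13 for EIF2AK2 (HOXA9 minus MEIS1 effect, adjusted p 2.8e-10) and −1.80 ± 0.12 for IFIH1 (SAFB minus MEIS1 effect, adjusted p 1.2e-12). The scaling to nuclear protein-coding counts moved the higher share of all calls to 19.3%, against 55.5%, between the HOXA9 and MEIS1 effects, and to 14.8%, against 59.3%, between the SAFB and MEIS1 effects. Since NT enters the HOXA9 and SAFB effects and NT_MEIS1ex the MEIS1 effect, the difference between the control sets is part of these values. MEIS1 RNA was itself lower in HOXA9_KO and SAFB_KO than in NT, so the effects compared are not of separate genes alone.

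Other genes of the same pathways were counted in lists, to be read beside the 29.9% of all tested genes that fell and 27.6% that rose in HOXA9_KO (median −0.07), and the 15.3% and 20.2% in SAFB_KO (median −0.02). These lists, like the members, were chosen with earlier results of these data known. The oligoadenylate synthetase and RNase L genes, whose products act together to cut RNA once double strands are sensed, had 5 of 7 lower and 1 higher in HOXA9_KO (median −2.77) and 4 lower and 1 higher in SAFB_KO (median −2.08). OAS2 changed by −3.31 ± 0.14 in HOXA9_KO and −2.09 ± 0.13 in SAFB_KO. It had 30.5 and 70.1 CPM there, against 298 CPM in NT and 64.4 CPM in NT_MEIS1ex. Of 12 ubiquitin-like modifiers and ligases around TRIM25, 8 fell and 4 rose in HOXA9_KO (median −0.73) and 9 fell in SAFB_KO (median −0.58). UBA7, the activating enzyme for the ISG15 modifier, changed by −0.87 ± 0.05 in HOXA9_KO and −0.69 ± 0.05 in SAFB_KO, and HERC6, a relative of the ISG15 ligase HERC5, by −1.69 ± 0.10 and −1.51 ± 0.10. In HOXA9_KO and SAFB_KO UBA7 had 48.8 and 53.9 CPM, against 87.7 CPM in NT and 31.5 CPM in NT_MEIS1ex. HERC6 had 7.76 and 8.65 CPM, against 24.5 CPM in NT and 6.52 CPM in NT_MEIS1ex. Of the 20 interferon-induced effector genes, 19 fell in HOXA9_KO (median −2.27) and 20 in SAFB_KO (median −1.86). In HOXA9_KO and SAFB_KO LY6E had 29.2 and 36.8 CPM, against 104 CPM in NT and 182 CPM in NT_MEIS1ex. PML had 23.0 and 26.7 CPM, against 39.9 CPM in NT and 87.0 CPM in NT_MEIS1ex. IFI27 had 1.47 and 3.04 CPM, against 26.5 CPM in NT and 12.6 CPM in NT_MEIS1ex. LY6E and PML were thus lower in NT than in NT_MEIS1ex, unlike OAS2, UBA7 and HERC6. The control sets differed in these lists too. NT minus NT_MEIS1ex had a median of 2.21 for the oligoadenylate synthetase list (6 genes higher, 1 lower). It was 1.19 for the modifiers and ligases (11 higher, 1 lower) and 1.80 for the effectors (15 higher, 4 lower). Of all tested genes 38.4% were higher and 37.9% lower in NT, with a median of 0.04.

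Other cytosolic RNA sensing genes did not follow in their median change, although their mean level was highest in NT. Their mean log2(CPM + 1) was 5.89 ± 0.0717 in NT (SD, n = 3). It was 5.35 ± 0.0516 in HOXA9_KO and 5.43 ± 0.0284 in SAFB_KO (SD, n = 3). In the MEIS1 experiment it was 5.36 ± 0.0478 in MEIS1_KO and 5.27 ± 0.0825 in NT_MEIS1ex (SD, n = 4). Of 25, 9 fell and 13 rose in HOXA9_KO (median 0.16) and 6 fell and 6 rose in SAFB_KO (median 0.05). DDX60, an interferon-raised helicase gene, changed by −2.46 ± 0.06 in HOXA9_KO and −1.48 ± 0.06 in SAFB_KO, whereas RNF135, a ligase of RIG-I, rose by 0.74 ± 0.06 and 0.33 ± 0.06. DDX60 had 19.1 and 37.0 CPM there, against 104 CPM in NT and 24.0 CPM in NT_MEIS1ex. RIGI itself, named here after its values were seen, changed by −2.65 ± 0.18 in HOXA9_KO (adjusted p 1.28e-05) and −1.92 ± 0.16 in SAFB_KO (adjusted p 1.16e-04). Of 18 tested genes of DNA sensing and inflammasomes, 6 fell and 8 rose in HOXA9_KO (median 0.01) and 4 fell and 7 rose in SAFB_KO (median 0.09). MNDA, a myeloid relative of IFI16 and AIM2 in the same gene family, rose where they fell, by 1.51 ± 0.04 in HOXA9_KO (195 CPM against 67.0 CPM in NT) and by 0.33 ± 0.04 in SAFB_KO (84.0 CPM), and it also rose by 0.84 ± 0.11 in MEIS1_KO (40.4 CPM against 22.9 CPM in NT_MEIS1ex).

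The genes around single members were mixed. Of 17 tested genes of nucleic acid degradation and processing, 9 fell and 3 rose in HOXA9_KO (median −0.10) and 6 fell and 2 rose in SAFB_KO (median −0.04), and SAMHD1, the nucleotide hydrolase, rose by 1.33 ± 0.04 and 0.72 ± 0.04. Of 14 partners of PKR and stress kinases, 4 fell and 6 rose in HOXA9_KO and 3 fell and 6 rose in SAFB_KO, both with a median of 0.04. PPP1R15A, which reverses the phosphorylation that EIF2AK2 puts on its target, rose by 0.97 ± 0.05 and 0.45 ± 0.05, and ATF4, a transcription factor of the same stress pathway, changed by −0.50 ± 0.03 and −0.51 ± 0.03. Of 6 partners of ZBP1 in cell death, 2 rose and 1 fell in HOXA9_KO (median 0.10), with a median of −0.03 in SAFB_KO; MLKL, which carries out necroptosis, differed by 0.26 ± 0.05 in HOXA9_KO and rose by 0.43 ± 0.06 in MEIS1_KO. Of 9 tested endosomal receptor genes, 4 rose in HOXA9_KO (median 0.41) and 3 rose and 2 fell in SAFB_KO (median 0.06). Scaled to nuclear protein-coding counts, the medians of the RNA sensing, DNA sensing, PKR and ZBP1 lists in HOXA9_KO were −0.10, −0.24, −0.21 and −0.15, and those of the RNA sensing, DNA sensing, PKR and endosomal lists in SAFB_KO were −0.09, −0.05, −0.10 and −0.08, so that these change sign with the scaling. TLR8, a receptor for single-stranded RNA, rose by 3.23 ± 0.05 in HOXA9_KO, 1.88 ± 0.05 in SAFB_KO and 0.76 ± 0.10 in MEIS1_KO.

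**Figure D4:**
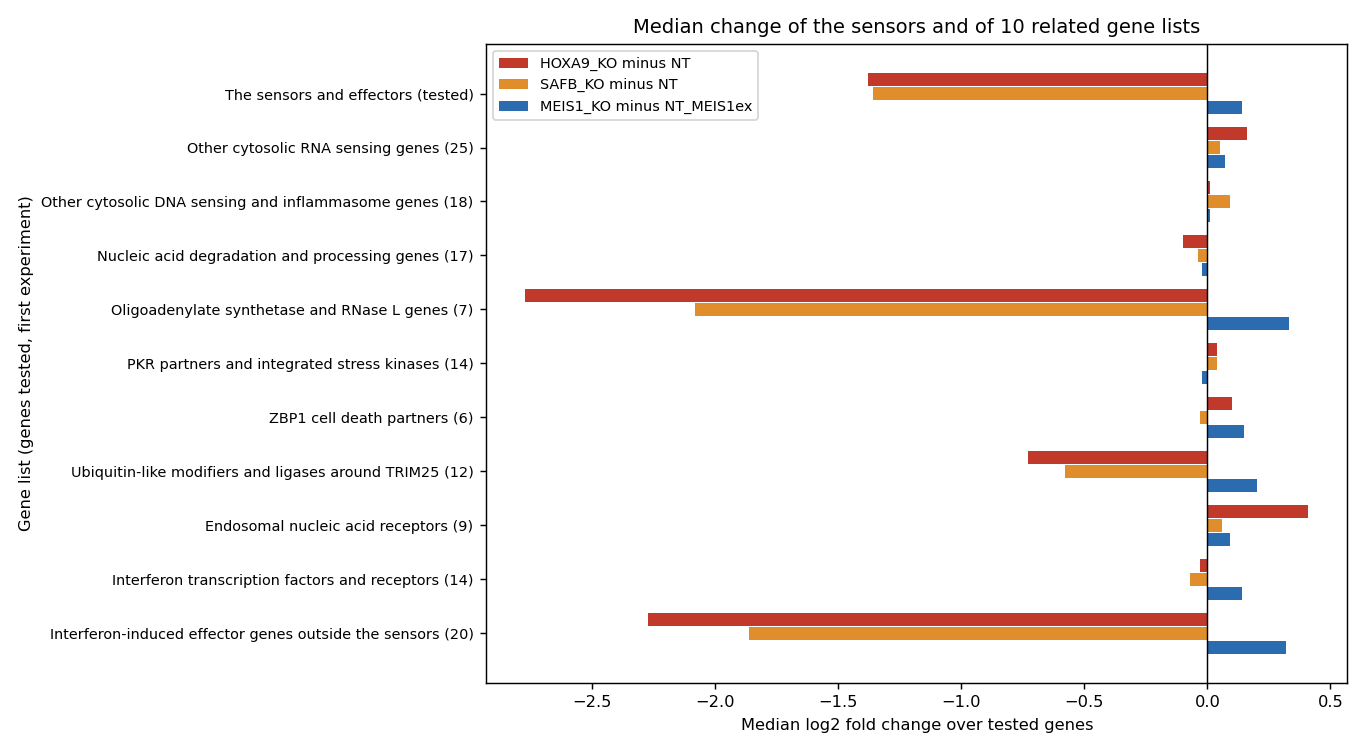
Median log2 fold change over the tested genes of the 10 described here and of 10 related lists, for each knockout over its own controls. The oligoadenylate synthetase list (−2.77 and −2.08) and the effector list (−2.27 and −1.86) lie left of 0 in HOXA9_KO and SAFB_KO like the sensors (−1.38 and −1.36), whereas the endosomal receptors lie at 0.41 in HOXA9_KO.

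Upstream of these genes, 14 interferon transcription factors and receptors were split, with 6 lower and 6 higher in HOXA9_KO (median −0.03) and 6 lower and 5 higher in SAFB_KO (median −0.07). IRF7, which is both a driver and a target of interferon, changed by −2.07 ± 0.06 in HOXA9_KO and −1.64 ± 0.06 in SAFB_KO. It had 14.4 and 18.9 CPM there, against 59.3 CPM in NT and 33.6 CPM in NT_MEIS1ex. IRF5, a myeloid member of the family, rose by 1.47 ± 0.04 and 0.72 ± 0.04, and also by 0.48 ± 0.05 in MEIS1_KO. Of 13 interferon genes only IFNK had enough counts for a test, which it did not pass in HOXA9_KO (adjusted p 0.326) or SAFB_KO (adjusted p 0.110). IFNB1, named after its values were seen, had 2 counts over the HOXA9_KO libraries and 4 over the SAFB_KO libraries, against 64 over the NT libraries, and 6 over the MEIS1_KO libraries against 2 over the NT_MEIS1ex libraries. In NT it reached 0.525 CPM at most, and it was not tested.

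In MEIS1_KO, 4.97% of all tested genes rose and 3.84% fell, with a median of 0.00. Of 20 interferon-induced effector genes 5 rose (median 0.32), of 7 oligoadenylate synthetase and RNase L genes 3 rose (median 0.33), of 12 ligases and modifiers 3 rose (median 0.20) and of 14 transcription factors and receptors 2 rose (median 0.14). The median of the 25 other RNA sensing genes was 0.07, and those of the PKR and the degradation lists were −0.02. OAS1 rose by 0.51 ± 0.12 (adjusted p 0.0183), at 18.6 CPM in MEIS1_KO against 13.2 CPM in NT_MEIS1ex.

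The genes whose pattern was most like each member were found over the 17 libraries among 11272 genes of at least 2 CPM in both experiments, after centring each library on the non-targeting mean of its experiment. The measure was Pearson's r of log2(CPM + 0.5), given as a description; libraries of an experiment share their controls, and those with HOXA9_KO, SAFB_KO and NT a high share of mitochondrial ribosomal RNA. EIF2AK2 was most like DDX60 (r 0.998), MX2 and SAMD9L, IFI16 most like RSAD2 (0.995), IFIT5 and ISG15, and IFIH1 most like PARP14 (0.993), RNF213 and PARP12. DHX58 was most like ISG15 (0.981), IRF7 and IFI44L, ADAR most like PARP14 (0.992), RNF213 and IFI16, ZBP1 most like APOL6 (0.972), IFI16 and HERC5, and AIM2 most like PARP12 (0.971), HERC6 and SAMD9. TRIM25 was most like STC2 (0.976), VLDLR and TNFAIP3, and MAVS most like TMEM63B (0.988), FOXO4 and DGKQ.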

How the data were processed

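RNA of MOLM13 cells was sequenced in 17 libraries as paired reads of 150 bases, per the labels. The authors deposited whole-number counts per gene for each library, with no normalization; hg38 is the build and STAR 2.7.10a, HTSeq 1.99.2, Trim Galore and bedtools are the tools listed, per the submitters' processing notes, and neither annotation release nor strand setting was given in the sources used here. Identifiers were matched to GENCODE 29, which holds 57937 of 58278, and promoter windows to RefSeq.

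Groups came from the sample labels. Low genes were dropped with filterByExpr (minimum count 10, minimum total 15), TMM factors were computed, and edgeR 4.0.16 under R 4.3.3 gave robust quasi-likelihood tests for 7 comparisons from 3 fits: 1 of the HOXA9_KO, SAFB_KO and NT libraries (18876 genes), 1 of the MEIS1 experiment (15744) and 1 of all 17 libraries (18836). Adjusted p is Benjamini-Hochberg over all tested genes, called under 0.05; the SE is the fold change over the root of F, and intervals are at 95%. The biological coefficient of variation was 4.63, 6.75 and 5.92%. The code was tested on simulated counts. Depth limits ZBP1 and AIM2 most. All 21 pairs of replicate libraries differed beyond sampling noise (chi-square per degree of freedom 2.90 to 30.6). Alternatives were RLE factors, other filters, DESeq2 1.42.0, limma-voom 3.58.1, nuclear protein-coding scaling, a replicate block, other sets of libraries and leaving out each library. The text names all 10 members, up to 3 genes per related list by smallest p in HOXA9_KO against NT, and 3 genes most like each member. Members and lists were chosen with earlier results of these data known.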

Additional observations from a re-analysis of the deposited data

Results flagged for a closer look

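The HOXA9 and MEIS1 effects, each against its own non-targeting libraries, differed in all 9 genes by an edgeR test of the difference itself. Of all tested genes, 19.7% were lower and 24.5% higher in that test. ZBP1 is counted among the 9 although it passed the filter on low counts only through NT, so its call adds no separate support. The HOXA9 minus MEIS1 difference in log2 effect was −1.65 for IFIH1, −2.18 for DHX58, 0.24 for MAVS, −2.15 for EIF2AK2, −0.55 for ADAR, −0.48 for TRIM25, −1.64 for IFI16 and −1.42 for AIM2. That of MAVS was not called with a mean of at least 2 CPM required (0.14, adjusted p 0.074) or under the scaling to nuclear protein-coding counts (−0.08, adjusted p 0.339). For ZBP1 it was −6.50, a fitted value that rests on 1 count in HOXA9_KO and on 6 counts in MEIS1_KO against 5 in NT_MEIS1ex; it ranged from −5.96 to −8.55 with a library left out, the far end being without HOXA9_KO replicate 1.

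The SAFB and MEIS1 effects differed likewise in 8 of 9 genes, where 8.49% of all tested genes were lower and 12.4% higher. The 8 again include ZBP1, which passed the filter only through NT. The SAFB minus MEIS1 difference was −1.80 for IFIH1, −1.90 for DHX58, −1.49 for EIF2AK2, −0.54 for ADAR, −0.51 for TRIM25, −1.46 for IFI16, −1.75 for AIM2 and, from few counts, −4.71 for ZBP1 (−5.54 without NT_MEIS1ex replicate 3). The HOXA9 and SAFB effects share the NT libraries, and the 2 control sets themselves differ for these genes, so knockout and control set cannot be told apart in these differences. In the groups of 4, no library passed Dixon's outlier test, which sets the gap to the nearest library over the range (critical value 0.829). NT_MEIS1ex replicate 1 came closest, at 0.794 for AIM2 and 0.777 for MAVS. With 4 libraries only a very large gap can pass, and the groups of 3 were not checked.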

How the results depend on the processing

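Across 9 alternatives and the leaving out of each library, 1212 of 1255 recomputed member values kept their direction and their side of the threshold; 15 kept their direction and lost their call, 10 gained one, and 18 changed sign, of which 3 also lost a call. With any 1 library left out, 8 genes were lower and 1 higher in HOXA9_KO, and 8 lower and 0 to 1 higher in SAFB_KO; with a mean of at least 2 CPM, which removes ZBP1 and AIM2, 6 were lower in each. Scaled to nuclear protein-coding counts, 0 genes were higher in HOXA9_KO, 0 in SAFB_KO (MAVS −0.04) and 0 in HOXA9_KO over SAFB_KO, where 4 were lower, namely EIF2AK2, DHX58 (−0.43), ADAR (−0.16) and TRIM25 (−0.12). In SAFB_KO, 0 were higher also with a mean of at least 2 CPM, with only the groups compared and with all 17 libraries in 1 fit. Between HOXA9_KO and SAFB_KO, 2 were lower with no filter on low counts, with only the groups compared and under leaving out a library (1 to 2), and TRIM25, at −0.00, took 0.02 with RLE factors, 0.02 with DESeq2, 0.00 with limma-voom, 0.00 with only the groups compared, 0.03 with all 17 libraries and −0.05 to 0.04 when leaving out libraries. In MEIS1_KO, 1 to 3 genes were higher when leaving out a library, and AIM2 ranged from −0.06 to 0.31.

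Between NT and NT_MEIS1ex, 1 gene was lower with a mean of at least 2 CPM (ADAR 0.07) and 1 when scaled to nuclear protein-coding counts (MAVS 0.19, ADAR 0.28), against 2 to 3 when leaving out libraries. For the HOXA9 minus MEIS1 effect, 0 were higher with a mean of at least 2 CPM and 0 when scaled (MAVS −0.08). For the SAFB minus MEIS1 effect, MAVS took −0.06 with a mean of at least 2 CPM, −0.16 when scaled and −0.03 to 0.07 when leaving out libraries. DESeq2 gave no adjusted p for ZBP1 there.

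Against the controls of the other experiment, an alternative chosen after seeing the data, 2 genes were higher and 3 lower in HOXA9_KO (IFIH1 0.60, AIM2 0.85). In SAFB_KO 2 were higher and 3 lower, with IFIH1 at 0.45, DHX58 0.02, MAVS −0.14, EIF2AK2 0.30, ZBP1 0.18, IFI16 0.04 and AIM2 0.52. In MEIS1_KO 6 were lower, with ZBP1 (6 counts against 176 in NT) at a fitted −4.30, IFIH1 at −1.64, DHX58 −1.55, EIF2AK2 −1.23, IFI16 −1.32, AIM2 −1.95 and TRIM25 at 0.61. The cause of these changes was not tested.

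Same-numbered libraries correlated at −0.281 to 0.095 and differently numbered ones at −0.205 to 0.250. This measure thus showed no pairing. In the MEIS1 experiment the mean log2(CPM + 1) of the effector list nevertheless rose from replicate 1 to 4 in both groups. It was 4.92, 4.94, 5.18 and 5.35 in MEIS1_KO and 4.59, 4.74, 4.92 and 4.95 in NT_MEIS1ex. For IFIH1 and IFI16, replicates 3 and 4 lay above replicates 1 and 2 in both groups, which held for no other member. Pairing in these genes alone was not tested. With a replicate block, 2 genes were lower in HOXA9_KO than in SAFB_KO, IFI16 being the added call (−0.21, adjusted p 0.00535), and the other counts of members called stayed within 1.5 times.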
